A study of Mus musculus with 6 samples.

Results

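The MHC class I and peptide loading genes described here were 10 genes, taken by name: B2m, H2-K1, H2-D1, H2-Q4, H2-Q7, H2-Q10, H2-T22, H2-T23, Tap2 and Tapbp. All 10 were present in each of the 6 count matrices, among 20279 genes with a count in any library, and all 10 passed the filter on low counts for the protocol comparisons. The libraries were single-cell cDNA of spleen, as labelled, from female mice of 10 weeks, of strain C57BL/6 per the series text, read by Nanopore long-read sequencing without fragmentation. They fell into 3 groups of 2: a modified 5′ protocol with extra dNTP and longer extension, the standard 5′ protocol, and the 3′ protocol. A 3′ library carries the cell barcode at the poly(A) end of a transcript and a 5′ library carries it at the other end. The extraction text given for the replicate 2 libraries describes pancreatic islets with depletion of insulin cDNA, and the series text speaks of islets, whereas the tissue label of all 6 libraries is spleen. The labels do not say whether libraries came from separate animals. A p-value of the main protocol comparisons reflects only how far libraries of 1 group differ, which can be technical. A p-value between cell classes reflects only how far the class difference varies between libraries, which can be technical too.

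Class I molecules display short peptides from inside the cell to CD8 T cells. A heavy chain (here the H2 genes) pairs with beta-2 microglobulin, the light chain encoded by B2m, in the endoplasmic reticulum, where the peptide transporter (of which Tap2 encodes a subunit) and tapasin (Tapbp) load the peptide. H2-K1 and H2-D1 encode the classical heavy chains of this strain, which nearly all nucleated cells carry. The H2-Q and H2-T genes encode non-classical chains, of which H2-T23 encodes Qa-1, a ligand of NK cell receptors, H2-Q7 encodes a Qa-2 chain, and H2-Q10 is known for a soluble product of the liver.

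The heavy chain genes resemble each other closely, and the deposited counts carry 1 gene per read by a rule that the sources used here do not give. B2m lies at chr2:122147686-122153083 and the other members on chromosome 17, from Tapbp at chr17:33915899-33929292 to H2-T22 at chr17:36037128-36042747 (GRCm38, GENCODE M21). Of the 31-base words in each transcript, 0% were found in another gene for B2m, 1.50% for Tap2 and 2.86% for Tapbp. Among the heavy chains the share was 18.6% for H2-Q10, 23.3% for H2-K1, 27.5% for H2-D1, 43.4% for H2-Q4, 48.7% for H2-T23, 52.6% for H2-Q7 and 63.3% for H2-T22. Values of H2-Q4, H2-Q7, H2-T22 and H2-T23 are therefore uncertain, because reads could be split between near copies. Reads of H2-Q10, H2-K1 and H2-D1 could be assigned to another gene as well, and how far was not tested. For these the share in the first and last 500 bases of the transcript was 8.94% at both ends for H2-Q10, 17.9% and 8.1% for H2-K1, and 2.98% and 24.9% for H2-D1. H2-Q10 and H2-D1 were 89.7% identical over aligned coding bases. Aligned coding bases were 91.1% identical between H2-K1 and H2-D1, 87.7% between H2-Q7 and H2-Q10, and 68.8% between H2-K1 and H2-T22.

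The stretch of the alpha 3 domain below, the part of the heavy chain that CD8 contacts, is one where few bases separate the members. Over all aligned coding bases they were less alike, with 68.8% identity to H2-K1 for H2-T22 and 81.9% for H2-T23. Each line gives 90 coding bases of a single exon, 5′ to 3′, with capitals where the base differs from H2-K1. The stretches lie at chr17:33997406-33997495 (minus strand) for H2-K1, chr17:35265849-35265938 (plus strand) for H2-D1, chr17:35382923-35383012 (plus strand) for H2-Q4, chr17:35442332-35442421 (plus strand) for H2-Q7, chr17:35473148-35473237 (plus strand) for H2-Q10, chr17:36040599-36040688 (minus strand) for H2-T22 and chr17:36030943-36031032 (minus strand) for H2-T23.
H2-K1: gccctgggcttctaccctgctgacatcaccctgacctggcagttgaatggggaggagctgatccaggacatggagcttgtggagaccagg
H2-D1: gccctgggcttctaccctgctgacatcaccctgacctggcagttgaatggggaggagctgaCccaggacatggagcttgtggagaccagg
H2-Q4: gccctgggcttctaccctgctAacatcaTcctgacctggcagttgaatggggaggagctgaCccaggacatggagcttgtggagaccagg
H2-Q7: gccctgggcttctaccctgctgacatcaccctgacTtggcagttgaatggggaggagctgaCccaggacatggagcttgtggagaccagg
H2-Q10: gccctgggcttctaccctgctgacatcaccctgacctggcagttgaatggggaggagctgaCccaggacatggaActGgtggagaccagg
H2-T22: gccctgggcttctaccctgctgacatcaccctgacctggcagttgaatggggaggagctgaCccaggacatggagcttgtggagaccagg
H2-T23: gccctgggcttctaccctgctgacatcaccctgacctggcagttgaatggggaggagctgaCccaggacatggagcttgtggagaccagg
H2-D1, H2-T22 and H2-T23 each differed from H2-K1 at 1 base of this stretch, H2-Q7 at 2, and H2-Q4 and H2-Q10 at 3, and the stretch was identical in H2-D1, H2-T22 and H2-T23.

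The stretch toward the membrane-spanning end is shown for 4 of the heavy chains because H2-Q10 departs most from H2-K1 there. Capitals again mark bases that differ from H2-K1, and each stretch crosses an intron in the genome. They lie at chr17:33997058-33997292 (minus strand) for H2-K1, chr17:35266052-35266286 (plus strand) for H2-D1, chr17:35383126-35383355 (plus strand) for H2-Q4 and chr17:35473351-35473568 (plus strand) for H2-Q10.
H2-K1: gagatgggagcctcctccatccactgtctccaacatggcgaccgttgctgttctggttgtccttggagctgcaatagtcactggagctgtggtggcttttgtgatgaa
H2-D1: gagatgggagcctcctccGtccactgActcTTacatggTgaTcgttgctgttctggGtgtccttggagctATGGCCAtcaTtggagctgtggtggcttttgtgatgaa
H2-Q4: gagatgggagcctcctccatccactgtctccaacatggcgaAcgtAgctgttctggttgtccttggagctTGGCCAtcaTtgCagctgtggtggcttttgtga
H2-Q10: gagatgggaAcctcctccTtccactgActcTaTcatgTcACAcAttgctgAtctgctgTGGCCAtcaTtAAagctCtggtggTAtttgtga
H2-Q10 had 91 bases here and 23 differences from H2-K1, against 108 bases and 15 differences in H2-D1 and 103 bases and 10 differences in H2-Q4. Its coding sequence of 978 bases ended at the end of this stretch, as did that of H2-Q4 with 1065 bases, while H2-K1 continued to 1110 coding bases.

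Promoters of 9 of the 10 members were found in the RefSeq table (GRCm38.p6), which had none for Tap2. The windows below are those of H2-K1, H2-D1, H2-Q4, H2-Q7 and H2-Q10, shown because these heavy chains share a run of motifs from which H2-Q10 departs. Capitals mark, on either strand, a kappa B form (GGG, any 2 bases, then TTCCC), an interferon response form (GAA, any base, then TGAAAC) and the CCAAT box (CCAAT), none of which overlap. The 127-base windows lie at chr17:34000342-34000468 (minus strand) for H2-K1, chr17:35262913-35263039 (plus strand) for H2-D1, chr17:35379433-35379559 (plus strand) for H2-Q4, chr17:35439011-35439137 (plus strand) for H2-Q7 and chr17:35469903-35470029 (plus strand) for H2-Q10.
H2-K1: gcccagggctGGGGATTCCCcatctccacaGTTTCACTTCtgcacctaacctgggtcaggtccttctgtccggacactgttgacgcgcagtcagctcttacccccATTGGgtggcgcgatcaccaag
H2-D1: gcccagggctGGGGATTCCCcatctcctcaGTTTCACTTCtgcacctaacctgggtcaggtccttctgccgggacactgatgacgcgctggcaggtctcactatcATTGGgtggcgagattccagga
H2-Q4: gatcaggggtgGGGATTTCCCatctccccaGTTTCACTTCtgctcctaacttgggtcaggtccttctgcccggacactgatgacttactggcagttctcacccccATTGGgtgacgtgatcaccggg
H2-Q7: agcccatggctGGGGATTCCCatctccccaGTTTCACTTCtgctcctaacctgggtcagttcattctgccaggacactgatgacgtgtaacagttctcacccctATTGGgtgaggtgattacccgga
H2-Q10: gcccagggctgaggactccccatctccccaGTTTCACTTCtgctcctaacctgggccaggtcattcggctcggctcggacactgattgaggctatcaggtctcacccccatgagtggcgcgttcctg
The kappa B form was in 4 of the 9 member promoters (H2-K1, H2-D1, H2-Q4 and H2-Q7) and in 1.75% of all 32851 promoters of 300 bases. The interferon response form was in 5 of 9, the same genes with H2-Q10, and in 0.405% of all promoters. The CCAAT box was in 8 of 9, all but H2-Q10, and in 37.4% of all promoters. A looser interferon form (GAAA, any 2 bases, then GAAA) was in the promoters of B2m, H2-T22 and H2-T23 and in 3.44% of all. These are matches of letters, and nothing is read from them about binding.

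Each library held 723341 to 2627253 counts, and 861 to 4045 cells had 200 or more genes and no more than 20% mitochondrial counts. The standard 5′ replicate 1 library stood apart, with 34.0% of its barcodes kept and 332 counts in the median cell kept. The spleen label was checked against markers: all 6 B cell and all 6 T cell markers were found in every library, and the 10 pancreas markers summed to 2.06 to 41.4 CPM (counts scaled to a common library total), with 8 of 10 found in modified 5′ replicate 2 and 1 of 10 in each other library. Globin genes held 13.4% to 22.3% of counts in the replicate 1 libraries and 0.320% to 0.524% in the replicate 2 libraries. Pairs of libraries shared 0 to 16 barcodes, at most 0.619% of the smaller library. The 10 members together held 0.674% to 1.24% of the counts of kept cells.

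Over all kept cells, H2-Q10 was the member that set the protocols furthest apart: it was 6.72-fold lower with the modified 5′ protocol and 7.42-fold lower with the standard 5′ protocol than with the 3′ protocol. H2-K1 was higher with both 5′ protocols, H2-D1 and H2-T22 rose with the standard 5′ protocol, and Tap2 and Tapbp rose with the modified 5′ protocol. No member differed between the modified and the standard 5′ protocol at the threshold. Because the values are sums over cells, fewer cells of a type and less RNA per cell cannot be told apart in them.

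**Figure D1:**
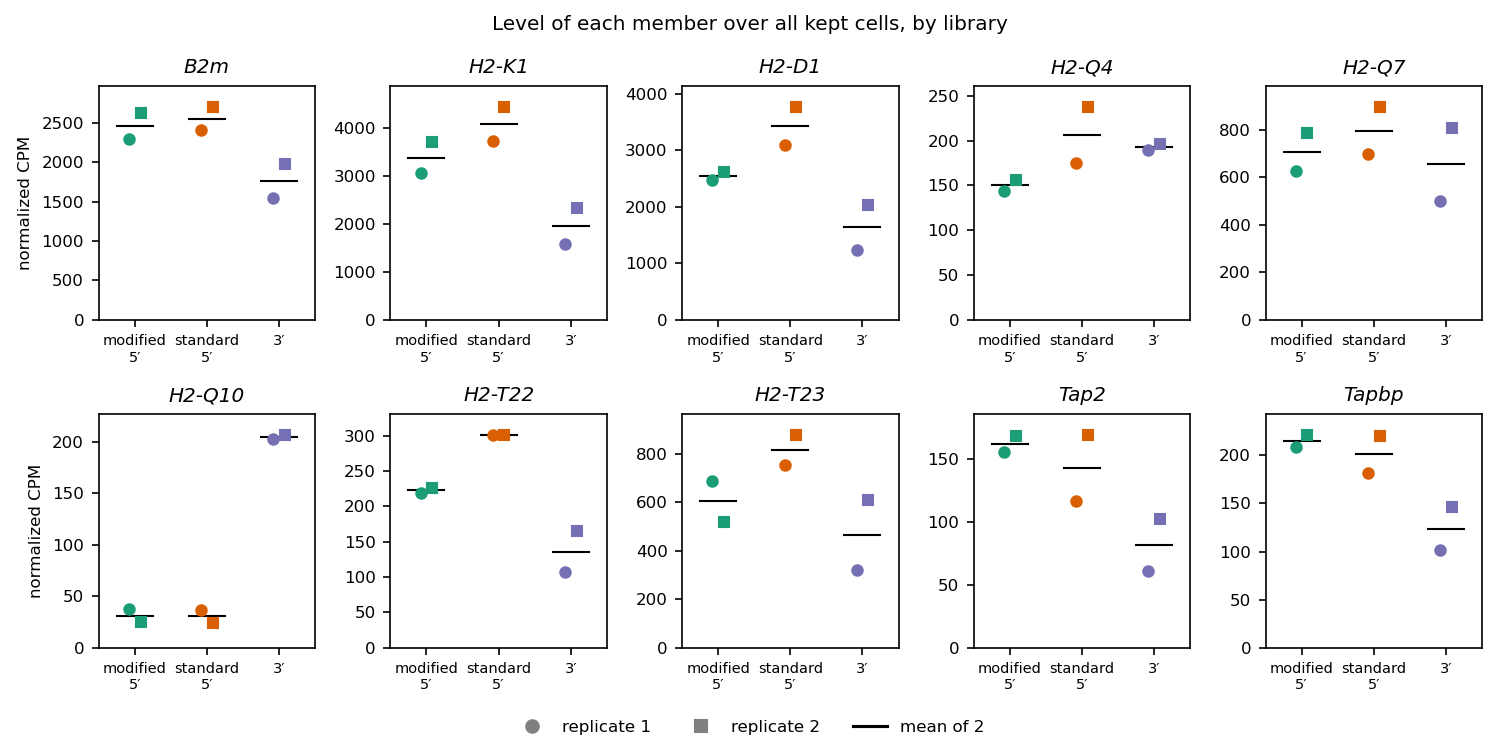
Normalized CPM (vertical axis, linear, from 0) of each of the 10 members over all kept cells in the modified 5′, standard 5′ and 3′ groups; circles are replicate 1, squares replicate 2 and bars the mean of 2. H2-Q10 lies at 23.7 to 37.8 in the 4 libraries of the 5′ protocols and at 202 and 207 in the 3′ libraries, while most other members lie lower in the 3′ libraries.

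For H2-Q10 the raw counts in kept cells were 41 and 48 in the modified 5′ libraries and 12 and 42 in the standard 5′ libraries, against 407 and 613 in the 3′ libraries (replicates 1 and 2 of each). Scaled to the library size with TMM factors (normalized CPM), these were 37.8 and 24.4 for modified 5′ and 36.9 and 23.7 for standard 5′, against 202 and 207 for 3′. Both 3′ libraries were far above all 4 of the others, with no overlap. The group means were 31.1 ± 9.51 (modified 5′), 30.3 ± 9.30 (standard 5′) and 205 ± 3.06 normalized CPM (3′; SD, n = 2 each). The log2 fold change was −2.75 ± 0.27 for modified 5′ over 3′ (SE, adjusted p = 9.38e-04, 6.72-fold lower) and −2.89 ± 0.29 for standard 5′ over 3′ (adjusted p = 0.00108, 7.42-fold lower), by edgeR's quasi-likelihood test with Benjamini-Hochberg adjustment over 11546 genes. Both comparisons use the same 3′ libraries. The markers of hepatocytes, the cell type from which H2-Q10 is known, summed to 0 to 2.02 CPM, with 0 of 6 genes found in each replicate 1 library and 1 to 3 of 6 in the replicate 2 libraries.

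For standard 5′ over 3′, 4 of the 10 members passed the adjusted p of 0.05 (23.3% of all genes passed), 3 higher (12.5% of all genes) and 1 lower (10.8% of all genes). H2-K1 had 3724 and 4435 normalized CPM in the standard 5′ libraries, against 1576 and 2329 in the 3′ libraries. H2-D1 had 3091 and 3765 in standard 5′, against 1241 and 2035 in 3′, and H2-T22 had 301 and 301 against 106 and 165. For these heavy chains both standard 5′ libraries were above both 3′ libraries. The log2 fold changes were 1.06 ± 0.25 for H2-K1 (adjusted p = 0.0157), 1.07 ± 0.26 for H2-D1 (adjusted p = 0.0189) and 1.15 ± 0.24 for H2-T22 (adjusted p = 0.0111).

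The 6 members that did not pass were the light chain, the loading genes and the remaining non-classical chains. B2m had 2412 and 2698 normalized CPM in standard 5′, against 1552 and 1983 in 3′, a log2 fold change of 0.53 (adjusted p = 0.0961). The values were 0.84 for Tap2 (adjusted p = 0.0585), 0.71 for Tapbp (adjusted p = 0.0560), 0.81 for H2-T23 (adjusted p = 0.0737), 0.28 for H2-Q7 and 0.12 for H2-Q4. H2-Q4 and H2-Q7 had overlapping groups. Groups did not overlap for 8 of the 10 members, against 64.2% of all genes, and the median log2 fold change was 0.76 over the members and −0.01 over all genes.

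For modified 5′ over 3′, 4 of the 10 members again passed (18.4% of all genes passed), 3 higher (10.2% of all genes) and 1 lower (8.19% of all genes). H2-K1 had 3067 and 3701 normalized CPM in the modified 5′ libraries, against 1576 and 2329 in the 3′ libraries. Tap2 had 155 and 168 in modified 5′, against 61.2 and 102 in 3′, and Tapbp had 208 and 221 against 101 and 146. None of these overlapped in normalized CPM, while in CPM without TMM factors the groups of H2-K1 did. The log2 fold changes were 0.79 ± 0.24 for H2-K1 (adjusted p = 0.0495), 0.98 ± 0.28 for Tap2 (adjusted p = 0.0381) and 0.79 ± 0.23 for Tapbp (adjusted p = 0.0433).

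H2-D1 had 2480 and 2618 normalized CPM in modified 5′, against 1241 and 2035 in 3′, and did not pass (log2 fold change 0.64, adjusted p = 0.113). The other values were 0.72 for H2-T22 (adjusted p = 0.0634), 0.48 for B2m, 0.37 for H2-T23, 0.11 for H2-Q7 and −0.36 for H2-Q4. H2-T23, the Qa-1 gene, had 689 and 518 in modified 5′, against 322 and 609 in 3′, and its groups overlapped, as did those of H2-Q7. Groups did not overlap for 8 of the 10 members, against 64.9% of all genes, and the median was 0.56 over the members and −0.02 over all genes.

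**Figure D2:**
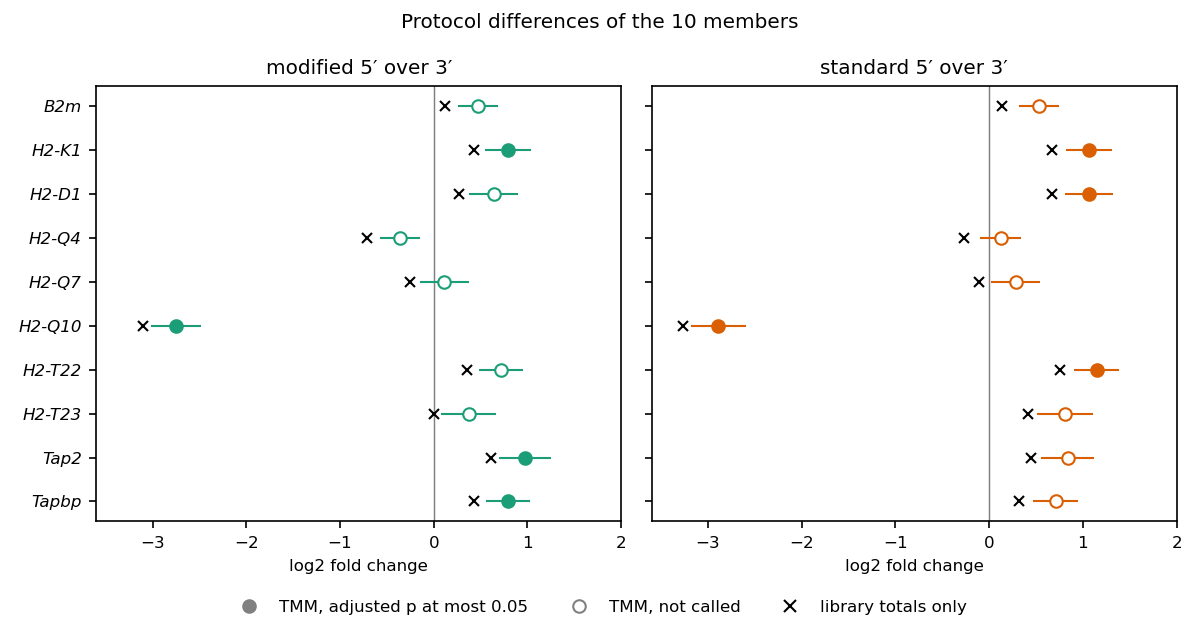
Log2 fold change (horizontal axis) of the 10 members for modified 5′ over 3′ (left) and standard 5′ over 3′ (right); circles with SE bars are values with TMM factors, filled where the adjusted p was at most 0.05, and crosses are values from library totals alone. H2-Q10 is at −2.75 and −2.89, and without the factors every member shifts to the left.

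How the libraries were scaled moved most members but not the H2-Q10 result. Without TMM factors the median over all genes shifted to −0.37 for modified 5′ over 3′ and −0.39 for standard 5′ over 3′, and the share of calls that were higher was 17.9% (55.5% with the factors) and 17.4% (53.7% with the factors). H2-Q10 and H2-Q4 then passed for modified 5′ over 3′ (−3.11 and −0.72, adjusted p = 0.0445 for H2-Q4), and H2-Q10 alone for standard 5′ over 3′ (−3.27). H2-Q7 was then below 0 in both comparisons (−0.25 and −0.11) and H2-Q4 in the standard one (−0.27), so the rises described here are relative to the other genes and the sign for H2-Q4 and H2-Q7 depended on the scaling. Overlap moved too. In CPM without the factors the groups of B2m, H2-T23, Tap2 and Tapbp also overlapped for standard 5′ over 3′. For modified 5′ over 3′ those of B2m, H2-K1 and H2-D1 also overlapped. H2-Q4 was then lower with no overlap in both comparisons. Libraries of the same replicate number deviated together, and with that number as a block 7 members passed for modified 5′ over 3′ and 8 for standard 5′ over 3′. With the block 3820 and 4127 of all 11546 genes passed, against 2124 and 2689 without it. The added members were B2m (adjusted p = 0.0409), H2-D1 (0.00735) and H2-T22 (0.00599) for modified 5′, and B2m (0.0224), H2-T23 (0.00516), Tap2 (0.00292) and Tapbp (0.00756) for standard 5′.

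Single libraries decided some of these calls, and the number of all genes passing moved with them. A fit with 1 library left out had only 1 library in that group. Counts of members passing in such fits are therefore given at the end, beside the counts of all genes. The H2-K1 call was lost for standard 5′ over 3′ without 3′ replicate 1 (adjusted p = 0.0602) or standard 5′ replicate 2 (0.151), and for modified 5′ over 3′ without any single library other than 3′ replicate 2 (0.0720 to 0.261), with RLE size factors (0.0530) or with all barcodes (0.0563). H2-Q10 passed in all of these, and in all 13 alternatives of each comparison, at −3.13 to −2.40 for modified 5′ and −3.27 to −2.45 for standard 5′.

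Between the modified and the standard 5′ protocol 0 of 11546 genes passed in edgeR (0.0%), with 459 at an unadjusted p of 0.05 or less, and DESeq2 called 1. The members' log2 fold changes, modified over standard, were −0.48 for H2-Q4, −0.44 for H2-T23, −0.43 for H2-T22 and H2-D1, −0.27 for H2-K1, −0.17 for H2-Q7, −0.06 for B2m, 0.08 for Tapbp and 0.14 for Tap2 and H2-Q10. H2-K1, H2-D1, H2-Q4, H2-T22 and H2-T23 had both modified 5′ libraries below both standard 5′ libraries in normalized CPM, so groups did not overlap for 5 of the 10 members, against 36.2% of all genes. In CPM without TMM factors the groups of H2-K1 overlapped, with 2774 and 3469 in modified 5′, against 3313 and 4050 in standard 5′.

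Since reads of near-identical genes can be split, the counts of 16 class I heavy chain genes were also summed to 1 row. Some near copies were not among the 16, so the sum cannot gather reads assigned to them. These included H2-T10 (with 55.8% of the words of H2-T22), H2-Q5 (31.8% of H2-Q7) and H2-T-ps (25.3% of H2-T23). The sum of the 16 genes rose by 0.85 ± 0.24 on the log2 scale for standard 5′ over 3′ (adjusted p = 0.0337). It had a value of 0.52 ± 0.24 for modified 5′ over 3′ (adjusted p = 0.162, and 0.0214 with the replicate block). For modified over standard 5′ it was −0.33 (adjusted p = 0.996).

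The share of H2-Q10 among the counts of the 7 heavy chain members does not depend on the scaling of libraries. It was 0.521% and 0.303% in modified 5′ and 0.420% and 0.225% in standard 5′, against 4.89% and 3.26% in 3′ (replicates 1 and 2). The 95% Wilson intervals reached at most 0.733% in the 5′ libraries and started at 3.01% in the 3′ libraries, and they cover counting error only. H2-Q4 likewise held 1.98% and 1.94% in modified 5′ and 2.00% and 2.25% in standard 5′, against 4.57% and 3.09% in 3′. H2-K1 held the larger share with the 5′ protocols, 42.2% and 46.1% in modified 5′ and 42.4% and 42.1% in standard 5′, against 38.1% and 36.7% in 3′. The ratio of B2m counts to heavy chain counts was 0.317 and 0.326 in modified 5′ and 0.275 and 0.256 in standard 5′, against 0.375 and 0.312 in 3′.

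**Figure D3:**
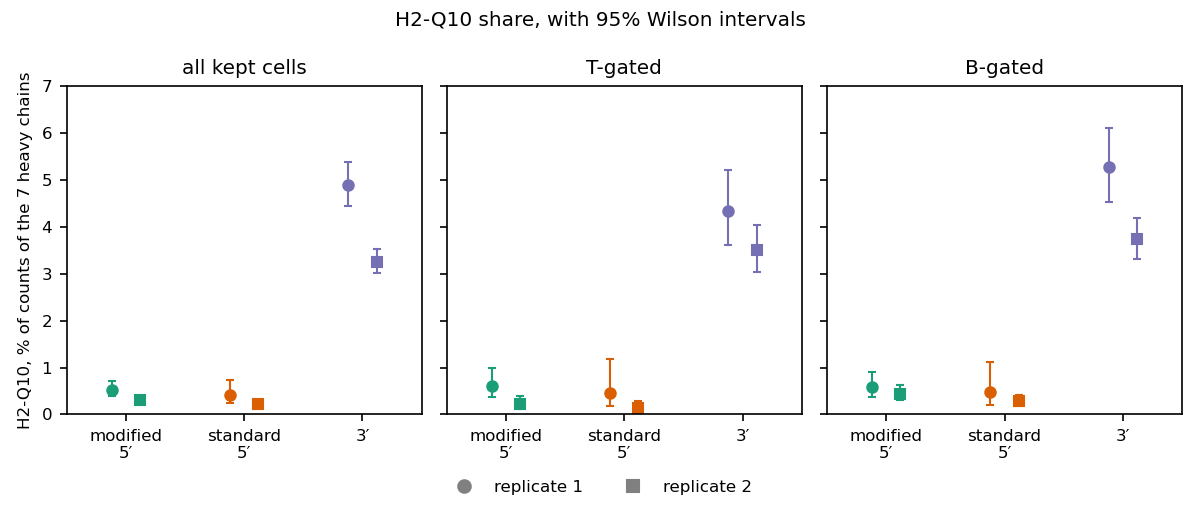
H2-Q10 counts as a percentage of the counts of the 7 heavy chain members (vertical axis, linear) in modified 5′, standard 5′ and 3′ libraries, for all kept cells, T-gated and B-gated cells; circles are replicate 1, squares replicate 2 and bars 95% Wilson intervals. The 3′ libraries lie at 3.26% to 5.27% in the 3 panels, and the 5′ libraries at 0.145% to 0.595%.

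To ask whether these differences were seen within a cell type, cells were gated by raw marker counts: at least 2 counts of a class's own markers and 0 of every other class. B-gated cells numbered 342 to 2008 per library and T-gated cells 241 to 919, and 11.1% to 15.9% of kept cells had markers of more than 1 class and were left out. In T-gated cells the counts of H2-Q10 were 15 and 10 in modified 5′ and 4 and 9 in standard 5′, against 108 and 179 in 3′, or 17.6 to 52.3 CPM of the class profile in the 4 libraries of the 5′ protocols, against 301 and 326 in 3′. In B-gated cells they were 20 and 29 in modified 5′ and 5 and 21 in standard 5′, against 165 and 271 in 3′. Both 3′ libraries were above every 5′ library in each class.

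In T-gated cells 3 members passed for modified 5′ over 3′ (17.0% of 7131 genes passed): H2-K1 at 0.62 ± 0.21, Tap2 at 0.94 ± 0.29 and H2-Q10 at −3.03 ± 0.35 on the log2 scale. For standard 5′ over 3′ 4 passed (20.7%): H2-K1 at 0.87 ± 0.21, H2-D1 at 0.77 ± 0.22, H2-T22 at 0.86 ± 0.27 and H2-Q10 at −3.58 ± 0.42. In B-gated cells 6 members passed for modified 5′ over 3′ (28.7% of 8992 genes passed), namely H2-K1, H2-D1, H2-T22, Tap2 and Tapbp between 0.67 and 1.02 and H2-Q10 at −2.60 ± 0.26. For standard 5′ over 3′ 7 passed (32.1%), those 6 and H2-T23, with H2-Q10 at −2.88 ± 0.31 and the others between 0.74 and 1.11. With the replicate block, Tapbp also passed for modified 5′ over 3′ in T-gated cells (0.69, adjusted p = 0.0243) and H2-T23 for standard 5′ over 3′ (0.60, adjusted p = 0.0315). H2-Q10 passed in every one of the 10 alternatives of each comparison within a class. The number of members passing moved with single libraries, and so did the number of all genes passing. Both are given at the end. No member passed between the 5′ protocols in T-gated cells (0.014% of genes, 347 at an unadjusted p of 0.05 or less) or in B-gated cells (0.0778%, 501 at an unadjusted p of 0.05 or less). The median over the members was 0.57 for modified and 0.79 for standard 5′ in B-gated cells, against −0.01 and −0.02 over all genes. In T-gated cells it was 0.36 and 0.40, against −0.06 and −0.08 over all genes. Without TMM factors the median of all genes moved to −0.37 and −0.40 in B-gated cells and to −0.30 and −0.28 in T-gated cells. On that scale H2-Q4 passed as lower for modified 5′ over 3′ in B-gated (−0.77, adjusted p = 0.00591) and T-gated cells (−0.70, adjusted p = 0.0489). Several rises lost their call on that scale. In T-gated cells these were H2-K1 (adjusted p = 0.20) and Tap2 (0.0805) for modified 5′. For standard 5′ they were H2-D1 (0.0506) and H2-T22 (0.0740). In B-gated cells they were H2-K1 (0.0963), H2-D1 (0.250), H2-T22 (0.156) and Tapbp (0.162) for modified 5′. For standard 5′ they were H2-T23 (0.0866) and Tapbp (0.249).

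Whether the protocol difference itself differed between T-gated and B-gated cells was tested with an interaction term over 8798 genes. No member passed: the members' differences, T minus B, lay between −0.37 and 0.25 for modified 5′ over 3′ (8 genes, 0.0909%, passed), between −0.64 and 0.05 for standard 5′ over 3′ (3 genes, 0.0341%) and between −0.15 and 0.46 for modified over standard 5′ (1 gene, 0.0114%). At an unadjusted p of 0.05 or less the counts of genes were 402, 412 and 342.

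The members also differed between cell classes. T-gated cells had more H2-Q7, H2-K1, B2m and H2-T22 than B-gated cells in each of the 6 libraries. In the fit with the library as a block, 7 of the 10 members were higher in T cells (40.8% of 6831 genes passed, 19.0% higher), and none was lower. The median log2 fold change was 0.34 over the members and −0.03 over all genes.

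H2-Q7 had 998 to 1396 CPM in T-gated cells with a median of 1087, against 356 to 741 CPM in B-gated cells with a median of 549, over 6 libraries each. The ranges did not overlap, and T cells had the higher value in 6 of 6 libraries (log2 fold change 1.04 ± 0.06, 2.06-fold, adjusted p = 4.03e-27). H2-K1 had 2848 to 5510 CPM in T-gated cells with a median of 4290, against 1647 to 3313 CPM in B-gated cells with a median of 2697. The ranges overlapped between libraries, but within each library T was above B (0.64 ± 0.05). B2m had 2377 to 3122 CPM in T-gated cells with a median of 2869, against 1689 to 2068 CPM in B-gated cells with a median of 1895, again above in 6 of 6 libraries (0.52 ± 0.05).

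H2-T22 (0.54 ± 0.09, 6 of 6 libraries), H2-D1 (0.18 ± 0.05, 6 of 6), Tap2 (0.43 ± 0.11, 5 of 6) and H2-Q4 (0.25 ± 0.09, 5 of 6) were also higher in T-gated cells. Of these, H2-D1, H2-Q4 and Tap2 did not pass in DESeq2, which kept 4 members. The values of the others were 0.26 for H2-Q10 (adjusted p = 0.0687, and 0.0364 without TMM factors), 0.11 for Tapbp and 0.02 for H2-T23. H2-T23 had a median of 752 CPM in T-gated cells, against 683 CPM in B-gated cells.

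**Figure D4:**
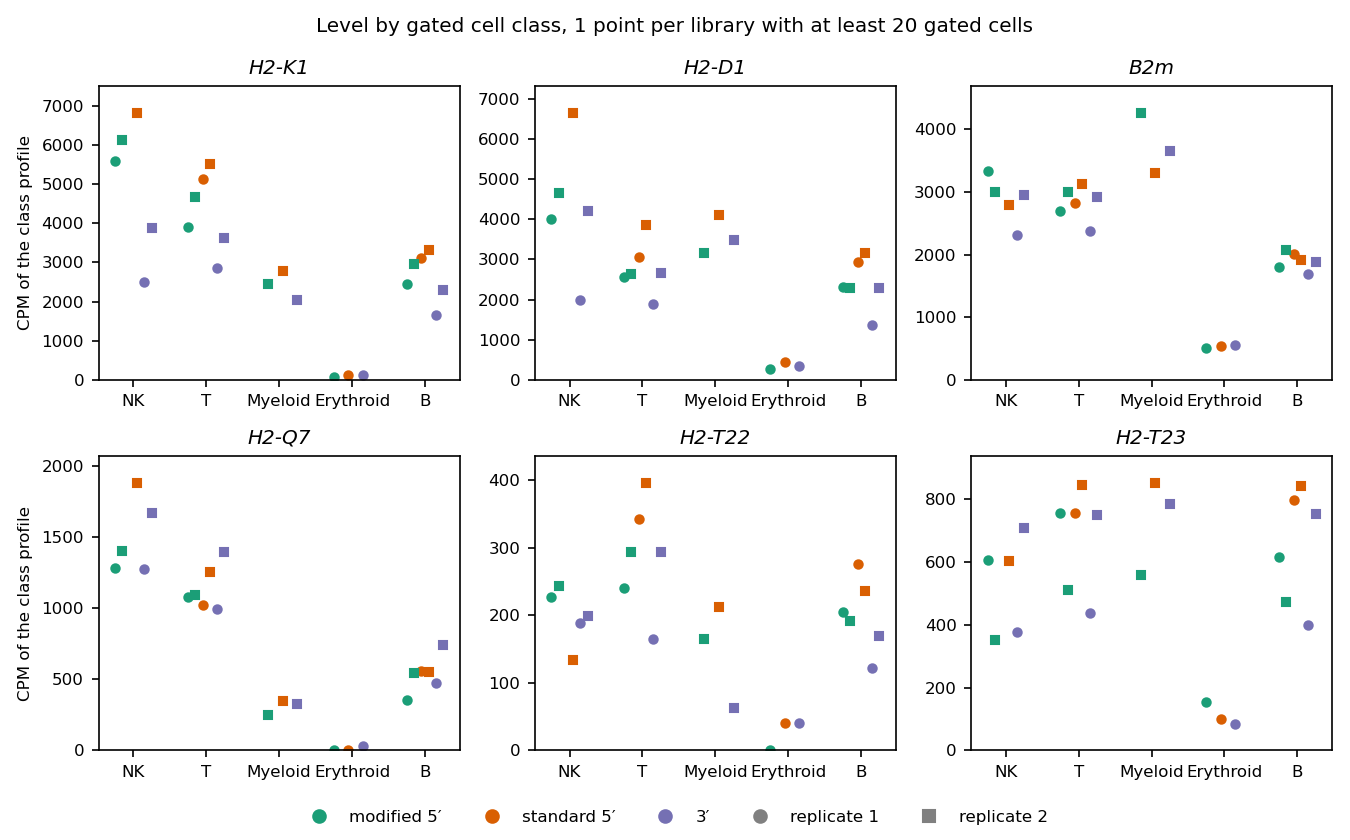
CPM of the class profile (vertical axis, linear, from 0) for 6 members in NK, T, myeloid, erythroid and B-gated cells, with 1 point per library that had at least 20 gated cells; colours are protocols, circles replicate 1 and squares replicate 2. H2-Q7 lies at 998 to 1396 in T-gated cells and at 356 to 741 in B-gated cells, and H2-K1, H2-D1 and B2m lie lowest in erythroid-gated cells.

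NK-gated cells (29 to 69 per library in 5 libraries, standard 5′ replicate 1 having 13 and left out) differed from T-gated cells in 2 of the 9 members tested (20.3% of 2912 genes passed), and H2-Q10 did not pass the filter. H2-D1 had 4008 and 4649 CPM in modified 5′, 6653 in standard 5′ replicate 2 and 1985 and 4197 in 3′ NK-gated cells, against 2571 and 2632, 3845, and 1898 and 2653 CPM in T-gated cells of the same libraries. NK was above T in 5 of 5 libraries (log2 fold change 0.49 ± 0.09, adjusted p = 5.36e-07). With no filter on low counts the value was −0.16 and did not pass. H2-T23 fell by 0.47 ± 0.18 (lower in 5 of 5 libraries, adjusted p = 0.0367), a call that was lost in DESeq2 (adjusted p = 0.230), without TMM factors (0.278), and without 3′ replicate 1 (0.0536), standard 5′ replicate 2 (0.157) or modified 5′ replicate 2 (0.119). The values of the others were 0.22 for H2-Q7, 0.12 for H2-Q4, 0.08 for H2-K1, −0.16 for B2m, −0.20 for Tapbp, −0.45 for Tap2 and −0.70 for H2-T22 (adjusted p = 0.0569). Without TMM factors H2-K1 (0.28, adjusted p = 0.00556) and H2-Q7 (0.40, adjusted p = 0.00486) passed as higher in NK cells.

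Between CD8 and CD4 T cells, gated by Cd8a or Cd8b1 against Cd4, 1 of 9 members tested passed (8.63% of 1008 genes passed). H2-Q7 was higher in CD8 T cells in 4 of 5 libraries (0.42 ± 0.14, adjusted p = 0.0241). It had 1377 and 1216 CPM in modified 5′, 1250 in standard 5′ replicate 2 and 1188 and 1508 in 3′ CD8 T cells, against 767 and 974, 1334, and 636 and 1198 CPM in CD4 T cells. The other members' values were 0.47 for H2-Q4, 0.45 for Tapbp, 0.25 for H2-T23, 0.13 for B2m, 0.03 for H2-T22, −0.06 for H2-K1, −0.18 for H2-D1 and −0.56 for Tap2, and H2-Q10 did not pass the filter. Without TMM factors H2-D1 passed as lower in CD8 T cells (−0.28, adjusted p = 0.0228), lower in 5 of 5 libraries. The H2-Q7 call was lost in DESeq2 (0.246), without TMM factors (0.113), with at least 3 marker counts (0.0953), and without modified 5′ replicate 1 (0.220), modified 5′ replicate 2 (0.0647), 3′ replicate 1 (0.151) or 3′ replicate 2 (0.0505). CD4 T cells numbered 41 to 58 per library, and standard 5′ replicate 1 had 8 and was left out.

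Erythroid-gated cells, which carry the marker genes of red cell precursors, had at least 20 cells only in the replicate 1 libraries (35 in modified 5′, 48 in standard 5′ and 87 in 3′), and a test between classes was made only where at least 4 libraries had them, so none was made here. H2-K1 had 85.5 CPM (5 counts) in modified 5′, 121 (6 counts) in standard 5′ and 114 (20 counts) in 3′ erythroid-gated cells, against 2441, 3115 and 1647 CPM in B-gated cells of the same libraries. H2-D1 had 274, 445 and 336 CPM in erythroid-gated cells, against 2312, 2932 and 1367 in B-gated cells. B2m had 513, 546 and 553, against 1796, 2013 and 1689. Tapbp was the member least far below, with 85.5, 101 and 74.1, against 205, 199 and 119. All 3 libraries had the lower value in erythroid-gated cells for each of these genes. CPM here are shares of all counts of a class profile, without TMM factors. Globin counts, 13.4% to 22.3% of all counts in these libraries, lower the CPM of other genes, and by how much in erythroid-gated cells was not tested. H2-Q10 had a count of 0 in the erythroid-gated cells of all 3 libraries, which at a floor of 3 counts allows up to 51.3, 60.6 and 17.1 CPM. Cd74, the class II invariant chain, made by B cells and other antigen-presenting cells, had 51.3, 141 and 39.9 CPM in erythroid-gated cells, against 32526, 34215 and 14630 in B-gated cells, and the source of these counts and their part in the values were not tested.

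Myeloid-gated cells reached 20 cells only in the replicate 2 libraries (69, 54 and 91). B2m had 4266 CPM in modified 5′, 3298 in standard 5′ and 3655 in 3′ myeloid-gated cells, against 2068, 1908 and 1881 CPM in B-gated cells of the same libraries. H2-D1 had 3168, 4096 and 3483 CPM in myeloid-gated cells, against 2287, 3159 and 2290, while H2-Q7 had 248, 346 and 329, against 543, 556 and 741. Each library had the higher value in myeloid-gated cells for B2m and H2-D1 and the lower value for H2-Q7. With a gate of at least 1 marker count, 5 libraries had enough cells and the test was made: 4 of 10 members passed (29.9% of 5099 genes passed). B2m (0.73 ± 0.13, adjusted p = 2.23e-07) and H2-D1 (0.35 ± 0.13, adjusted p = 0.0296) were higher in myeloid-gated cells, and H2-Q7 (−1.02 ± 0.21, adjusted p = 1.44e-05) and H2-K1 (−0.39 ± 0.14, adjusted p = 0.0182) were lower, with a median of −0.41 over the members and −0.23 over all genes.

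For replicate 2 over replicate 1, with the protocol in the fit, no member passed (3.58% of 11546 genes passed), and the smallest adjusted p was 0.119. The log2 fold changes were −0.24 for H2-Q10, 0.46 for H2-Q7, 0.45 for Tap2, 0.36 for H2-K1 and H2-D1, 0.30 for Tapbp, 0.24 for B2m and H2-T23, 0.23 for H2-T22 and 0.18 for H2-Q4. They were above 0 for 9 of the 10 members, with a median of 0.27, against −0.0049 over all genes. In this comparison 1587 genes had an unadjusted p of 0.05 or less, and DESeq2 called 183 genes and no member.

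Other genes of the pathway were described by 5 lists. The list for the immunoproteasome, which cuts peptides for class I, had 2 of 5 genes higher for modified 5′ over 3′ (10.2% of all genes were higher). These were the activator genes Psme2 (1.25) and Psme1 (1.12), and no Psmb gene passed there. For standard 5′ over 3′ 4 of 5 were higher (12.5% of all genes), Psme2 (1.61), Psme1 (1.20), Psmb10 (0.99) and Psmb8 (0.81). Psme2 had 504 and 557 normalized CPM in modified 5′ and 667 and 692 in standard 5′, against 190 and 255 in 3′. The medians over this list were 0.79 and 0.99, against −0.02 and −0.01 over all genes.

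Of 6 genes of peptide loading and trimming, Pdia3, a disulfide isomerase of the loading complex, rose by 1.68 ± 0.20 for modified 5′ over 3′, and rose for standard 5′ over 3′ as well (adjusted p = 0.00133). It had 294 and 353 normalized CPM in modified 5′ and 362 and 346 in standard 5′, against 101 and 101 in 3′. No other gene of that list passed, and its median was 0.06 and −0.23. Among 9 tested genes of other class I heavy chains and class I-like molecules, Fcgrt rose by 1.02 and H2-T3 and H2-T24 fell by 1.58 and 0.85 for modified 5′ over 3′, and H2-T24 fell by 0.98 for standard 5′ over 3′. None of 10 regulators passed, and of 10 tested receptors Cd8b1 rose in both (0.92 and 1.23) and Cd8a in the standard 5′ comparison (0.87).

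Between T-gated and B-gated cells, where 40.8% of all genes passed and 19.0% were higher in T cells, the lists had calls in both directions. Among the regulators Nlrc5, the class I transactivator (1.39), and Irf1 (0.73) were higher in T cells, and Nfya (−0.88) and Irf2 (−0.65) were lower. The immunoproteasome had 4 of 5 higher, Psme2 (0.81), Psme1 (0.38), Psmb10 (0.36) and Psmb8 (0.30). Nlrc5 had 48.9 to 140 CPM in T-gated cells, against 15.3 to 46.3 CPM in B-gated cells, over 6 libraries each. Every library had the higher value in T-gated cells. Of 6 loading genes 3 rose, Erap1 (0.73), Tapbpl (0.34) and Pdia3 (0.28), and 2 fell, the chaperones Calr (−0.69) and Canx (−0.31). Of 5 tested class I-like genes 3 fell, H2-M3 (−0.83), H2-Q6 (−0.60) and Cd1d1 (−0.59), and H2-Q6 shares sequence with H2-Q7, so the split of reads between them is uncertain. Of 4 tested receptors Cd8a, Cd8b1 and Klrd1 were higher in T cells and Pirb was lower (−1.68).

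In NK over T (20.3% of all genes passed) 3 of 5 immunoproteasome genes were lower in NK cells, Psme2 (−0.84), Psme1 (−0.77) and Psmb8 (−0.48), and H2-Q6 was higher (1.07). Of 8 tested receptors 6 were higher in NK cells, led by Klra8, Klra4, Klra7, Klrc1 and Klra1, and the CD8 chains Cd8b1 and Cd8a were lower. In CD8 over CD4 T cells (8.63% of all genes passed) H2-Q6 (1.19) and Klrd1 (2.84) were higher. For replicate 2 over replicate 1 (3.58% of all genes passed) Irf1 (0.66) and the receptors Klra8 (1.08), Klra7 (1.06) and Klra4 (0.65) were higher.

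Within B-gated cells 4 of 5 immunoproteasome genes were higher for modified 5′ over 3′ (28.7% of all genes passed), led by Psme2 (1.17), and 5 of 5 for standard 5′ over 3′ (32.1%), led by Psme2 (1.72). Within T-gated cells Psme2 and Psme1 passed in both comparisons (1.13 and 0.96 for modified 5′, 1.21 and 1.10 for standard 5′), and no Psmb gene did.

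The genes whose level was most alike were ranked by Pearson's r of log2(CPM + 1) over the 12 B-gated and T-gated profiles, among 6788 genes. The points share libraries, depth, protocols and cell classes, so r carries the differences between protocols and between classes given above, and it is a description. H2-K1 was most like Cdk2ap2 and Calhm6 (0.98 each), followed by Eif3h, Rnaset2a and Rplp0, and among the members H2-T22 (0.93) and B2m (0.89) came at ranks 39 and 108. B2m was most like Ifi47, Cep19, Rgs10, Ccs and Itm2c (0.97 to 0.98), and H2-D1 like Atp5c1, Psmb5, Tomm22, Snrpb and Eif3i (0.94 to 0.96). H2-Q10 was most like Atp2b4 (0.98), Psma7, Polr2g, Add3 and Pnisr, and its r with H2-K1 was −0.55.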

How the data were processed

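The authors deposited 1 table per library (6 in all) with whole-number counts for every gene symbol in every cell barcode, not normalized. The build mm10 (GRCm38) and Seurat are named per the submitters' processing notes. Not given in the sources used here are the aligner, the annotation, the use of strand and any collapse of molecular identifiers. Values are called counts for that reason.

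A barcode was kept if it had 200 or more genes and no more than 20% mitochondrial counts. No doublet caller was run. Cells were assigned to a class by at least 2 counts of its own markers and 0 of any other class, with no clustering. Counts were summed per library, or per library and class where at least 20 cells were gated, and tested by edgeR's quasi-likelihood method (edgeR 4.0.16, R 4.3.3) after filterByExpr and TMM scaling. All groups entered 1 fit, and p-values were adjusted by Benjamini-Hochberg over all genes tested, at 0.05. Comparisons of classes had the library as a block, left out the gate markers, and required at least 4 libraries. DESeq2 1.42.0 was an alternative. The fits were tested on simulated counts. CPM is counts scaled to a common total per profile, and normalized CPM is scaled by TMM factors as well.

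Libraries with the same replicate number deviated together: the correlations of their deviations from the group means were 0.616, 0.507 and 0.421 over 6843 genes. Libraries of 1 number also share their extraction text in the labels. The number was therefore used as a block in an alternative. No pair of libraries agreed within sampling noise.

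Sequences came from GENCODE M21 transcripts and RefSeq promoters of GRCm38, with coding sequences aligned by MAFFT 7.526 and words of 31 bases compared between genes. The members, gene lists, gates and alternatives were chosen with earlier results of these data known. The naming rule, all 10 members in every comparison and at most 5 genes per direction of each pathway list, was followed in the comparisons over all kept cells and between tested classes. Within T-gated and B-gated cells the members that passed and the immunoproteasome are named. One regulator and one coding stretch are not reported here. Dendritic, plasma and erythroid-gated cells were too few for tests. Intervals and floors (3 counts) cover counting error only.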

Additional observations from a re-analysis of the deposited data

How the results depend on the processing

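Of the members' values and the summed heavy chains under the alternatives, 489 kept their direction and their side of the threshold, 86 lost a call, 30 gained one and 11 changed sign. The cause of each change was not tested. Without TMM factors, an alternative chosen after seeing the data, 2 members passed for modified 5′ over 3′ (2773 of 11546 genes passed), with H2-Q7 at −0.25. For standard 5′ over 3′ 1 member passed (3198 genes), with H2-Q4 at −0.27 and H2-Q7 at −0.11. On that scale 3 members passed for modified 5′ over 3′ in B-gated cells (3133 of 8992 genes). In T-gated cells 2 members passed for standard 5′ over 3′ (1650 of 7131 genes). Between the 5′ protocols 12 genes passed in B-gated cells.

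With the replicate block, where the pairing by number was as described, 7 members and 3820 genes passed for modified 5′ over 3′, 8 members and 4127 genes for standard 5′ over 3′, 21 genes for modified over standard 5′ and 12 genes for the same in T-gated cells. The block took no member's call away over all cells. DESeq2 called 1163 genes for modified 5′ over 3′, 1452 for standard 5′ over 3′, 1 for modified over standard 5′, 183 for replicate set 2 over 1 and 35 for CD8 over CD4 T cells. It called 4 members for T over B (2095 genes), 1 for NK over T (401 genes) and 0 for CD8 over CD4 T. With no filter on low counts, 7 members passed for standard 5′ over 3′ and 65 genes for modified over standard 5′, 1 member for replicate set 2 over 1, 6 members and 1321 genes for NK over T (H2-D1 at −0.16), and 4 members and 261 genes for CD8 over CD4 T. The counts of all genes beside the 7 members and the 1 member are not given here.

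With at least 3 marker counts, 8 genes passed between the 5′ protocols in T-gated cells, 0 members for CD8 over CD4 T, and 7 and 0 genes for the difference between T and B of standard 5′ over 3′ and of modified over standard 5′. With at least 1 the count was 5 for the difference of standard 5′ over 3′.

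Leaving out each library in turn gave, for modified 5′ over 3′, 1 to 7 members and 416 to 2216 genes, with H2-Q7 at −0.19 to 0.52 and H2-T23 at −0.0077 to 0.92. For standard 5′ over 3′ it gave 1 to 8 members and 221 to 2763 genes, with H2-Q4 at −0.12 to 0.32 and H2-Q7 at −0.016 to 0.69. For modified over standard 5′ it gave 0 to 1 gene. In B-gated cells the ranges were 1 to 7 members and 1307 to 2684 genes (modified 5′ over 3′), 3 to 7 members and 473 to 2829 genes (standard 5′ over 3′) and 3 to 41 genes (modified over standard). In T-gated cells they were 1 to 7 members and 529 to 1383 genes, 1 to 5 members and 162 to 1600 genes, and 2 to 49 genes for the same comparisons. Replicate set 2 over 1 gave 0 to 2 members and 125 to 657 genes, T over B gave H2-T23 at −0.032 to 0.081, NK over T gave 1 to 3 members, and CD8 over CD4 T gave 0 to 1 member and 55 to 84 genes.

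Not run were the alternatives for plasma, erythroid and dendritic over B, and most for myeloid over B, because fewer than 4 libraries had 20 cells of the class. Low counts limit the precision of H2-Q10 (12 to 48 in the 5′ libraries over all kept cells, 4 to 15 in T-gated and 5 to 29 in B-gated cells), of H2-T23 in NK-gated cells (8 to 25) and of H2-T3.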
